A study of Mus musculus with 9 samples.

Results

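The expressed long intergenic non-coding RNAs (lincRNAs) were the 81 rows of the deposited gene table that carried the type lincRNA and reached a summed count of 450 over the 9 libraries. They were selected on that sum from 2769 lincRNA rows among 35275 genes, and 6 rows whose symbols begin with Snhg, the hosts of small nucleolar RNAs, were left out (Snhg1, Snhg4, Snhg6, Snhg7, Snhg12 and Snhg18). Gm15706, Jpx and Gm26617 lay just inside the limit with sums of 454, 458 and 460, and 3010003L21Rik, 9330159M07Rik and 1810014B01Rik lay just outside with 429, 426 and 416. Of the 81, 66 averaged at least 50 counts in each of the 3 groups and so did not pass through their highest group alone.

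The cells were C57Bl/6 mouse embryonic fibroblasts (MEFs), connective tissue cells taken from embryos and grown in culture. The groups were MEFs in iso-osmolar medium, MEFs in medium brought to 500 mOsm with 200 mM sucrose (lower stress intensity) and MEFs in medium brought to 600 mOsm with 300 mM sucrose (high stress intensity), each treated for 3 h and sequenced as 3 libraries. Sucrose draws water from the cell, and the question was which transcripts separate the intensity that cells adapt to from the intensity that they do not. The labels do not say whether the libraries of a group came from separate cultures, so the tests measure the spread between these libraries. Totals were 21716042 to 26740832 counts on genes per library, and a count of 3 corresponded to 0.113 to 0.137 CPM (counts divided by the TMM-adjusted size of each library), a floor that covers counting error only. All 8 fibroblast markers were counted in every library, at a summed 20690 to 25200 CPM. The 4 endothelial markers summed to 0.778 to 0.900 CPM in iso-osmolar medium, 11.9 to 13.4 CPM at 500 mOsm and 2.13 to 3.18 CPM at 600 mOsm, and the 4 epithelial markers to at most 0.410, 4.80 and 0.544 CPM. Over all 9 libraries, the 3 macrophage and blood markers summed to 11.3 to 17.1 CPM and the 4 neuron markers to 9.55 to 16.6 CPM. The 4 pluripotent markers summed to 2.29 to 7.17 CPM and the 4 muscle markers to 0.0818 to 1.13 CPM. The part of any of these markers in the lincRNA values was not tested.

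LincRNAs are transcripts of RNA polymerase II that are capped, mostly spliced and polyadenylated, and lie apart from protein-coding genes. Some act on the chromosome they are made from, such as Xist, which coats and silences an X chromosome. Others build nuclear bodies, such as Neat1 in paraspeckles, or are by-products of a divergent promoter or precursors of microRNAs (miRNAs). Because the libraries were made from RNA enriched with poly-T, transcripts without a poly(A) tail, such as mature Malat1 and the long form of Neat1, are caught only in part.

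Of the 81, GENCODE M21 gave 57 the type lincRNA, 7 antisense, 6 bidirectional promoter lncRNA and 5 processed transcript. The others were 1 protein-coding gene (Gm2115), 1 transcribed pseudogene, 1 gene of the class TEC and 3 rows that were not found. Another gene of the table overlapped 24 of them and no listed gene overlapped the other 57. By GENCODE, 31 of the 81 shared exonic bases with a gene on the opposite strand. Reads of a gene and its partner on the opposite strand could not be told apart, since the library protocol describes no strand marking and use of strand in counting is not stated.

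Sequence was drawn from RefSeq (GRCm38.p6, the assembly of mm10) for the lincRNAs on which the results below turn. Ftx and 5430416N02Rik, which fell at both intensities, and Gm17501, which rose at 500 mOsm, are shown by 300 bases around the start of transcription, from 250 bases before to 50 after. Capitals mark the letters TATAAA on either strand, the core of the TATA box, and positions are those of mm10.
Ftx, minus strand, chrX:103623705-103624004: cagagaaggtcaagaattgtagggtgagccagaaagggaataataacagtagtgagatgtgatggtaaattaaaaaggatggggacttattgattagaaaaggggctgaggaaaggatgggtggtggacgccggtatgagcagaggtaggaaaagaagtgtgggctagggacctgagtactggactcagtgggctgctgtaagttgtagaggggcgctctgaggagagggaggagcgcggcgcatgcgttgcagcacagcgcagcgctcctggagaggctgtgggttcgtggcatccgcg
5430416N02Rik, minus strand, chr5:100429486-100429785: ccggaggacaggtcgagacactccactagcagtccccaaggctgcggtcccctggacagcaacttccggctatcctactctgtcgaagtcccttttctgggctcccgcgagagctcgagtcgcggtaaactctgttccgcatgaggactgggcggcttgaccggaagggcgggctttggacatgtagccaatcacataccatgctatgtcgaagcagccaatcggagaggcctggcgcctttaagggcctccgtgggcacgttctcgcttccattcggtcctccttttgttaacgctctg
Gm17501, plus strand, chr3:145649827-145650126: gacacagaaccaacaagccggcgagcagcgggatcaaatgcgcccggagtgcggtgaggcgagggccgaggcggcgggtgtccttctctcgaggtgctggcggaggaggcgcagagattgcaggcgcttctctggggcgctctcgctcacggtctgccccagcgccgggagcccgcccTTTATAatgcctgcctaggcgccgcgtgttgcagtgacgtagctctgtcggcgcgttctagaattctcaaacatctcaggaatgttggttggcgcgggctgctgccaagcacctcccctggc
The RefSeq start of Gm17501 lies 235 bases from the start listed in the table. Its window covers only part of the gap between that listed start and the coding gene Cyr61 on the opposite strand. The window may also reach past the start of Cyr61, so it cannot be read as the promoter of Gm17501 alone. The marked letters read TATAAA on that opposite strand, and which of these starts they serve was not tested. The windows of Ftx and 5430416N02Rik held none of the 6 motifs searched on both strands, which were TGGAAA (the core of the TonEBP and NFAT element), TGAGTCA (AP-1), TGACGTCA (the cAMP response element), TGATGCAA (the Atf4 element), TATAAA and CACGTG (the E-box). Only these letters were searched, so the result says nothing of the factors themselves.

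RefSeq promoters were matched for 46 of the 81 lincRNAs, and 36 of them started within 100 bases of the listed start. Those 36 had a median GC content of 61.2% and a median of 22 CpG, beside 52.7% and 7 over 27025 promoters. The letters TGACGTCA stood in 8.3% of the 36 and in 1.9% of all promoters, and CACGTG in 13.9% and 7.2%. TGGAAA stood in 8.3% and 21.5%, TGAGTCA in 5.6% and 5.2%, TATAAA in 8.3% and 14.2% and TGATGCAA in 0.0% and 0.9%. Each share of 8.3% rests on 3 promoters.

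Ftx and Gm26532 lie with miRNA genes, and the mature miRNAs are given with the seed (bases 2 to 8) in capitals. Ftx spans Mir374b and Mir421 on chromosome X, and Gm26532 begins where the hairpin of Mir24-2 ends, 24 bases after mature miR-24-3p, with Mir27a and Mir23a just upstream on the same strand of chromosome 8.
mmu-miR-374b-5p, inside Ftx: aUAUAAUAcaaccugcuaagug
mmu-miR-421-5p, inside Ftx: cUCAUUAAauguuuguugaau
mmu-miR-23a-3p, before Gm26532: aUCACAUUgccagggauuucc
mmu-miR-27a-3p, before Gm26532: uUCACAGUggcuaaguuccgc
mmu-miR-24-3p, before Gm26532: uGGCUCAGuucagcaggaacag
No seed is shared between these 5. Mature miRNAs are too short for these libraries and were not measured. Mir17hg, host of the miR-17 to miR-92a cluster, was also counted and passed the test in none of the comparisons.

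The lincRNAs were mostly low. Their mean over the 9 libraries had a median of 2.28 FPKM (counts scaled to gene length and library total), 15 were at 10 FPKM or more and 15 were under 1 FPKM. The most abundant row, Yam1, reached 1360 FPKM. GENCODE lists it as Gm42418, at chr17:39846958-39848788. On the opposite strand, the exons of AY036118 and CT010467.1 together cover 1822 of its 1831 exonic bases (99.5%). It lies in a ribosomal RNA locus, so its counts are given apart from the rest. Next came 1190002F15Rik (Lockd, downstream of the cell cycle inhibitor Cdkn1b) at 37.1 FPKM, 2410004N09Rik (Epb41l4aos) at 34.3 FPKM, C330006A16Rik at 30.6 FPKM and 1810058I24Rik at 25.7 FPKM. Gm14230, 3300005D01Rik, Gm12603, 9530082P21Rik and Gm2115 completed the 10 highest, at 12.7 to 22.1 FPKM.

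All 81 were among the 13082 genes tested by edgeR's quasi-likelihood test, and a gene was called where its Benjamini-Hochberg adjusted p over all genes tested was under 0.05. At 500 mOsm against iso-osmolar, 12 lincRNAs were higher and 16 lower, or 14.8% and 19.8%, beside 13.2% and 14.8% of all genes tested. The count of 12 was 7 without iso-osmolar replicate 1. The median log2 fold change was -0.01 over the lincRNAs and 0.01 over all genes. At 600 mOsm against iso-osmolar, 4 were higher and 24 lower, or 4.94% and 29.6%, beside 15.1% and 20.0% of all genes. The median was -0.18 over the lincRNAs and 0.01 over all genes. Between the intensities, 6 were higher and 18 lower at 600 mOsm, or 7.41% and 22.2%, beside 11.9% and 17.2% of all genes. There the medians were -0.08 and 0.01. Some of the 81 reached the summed count mainly through the group in which they were high. Among the 66 with at least 50 counts on average in each group, a limit that in turn removes lincRNAs low in 1 group, 7.58% were higher and 19.7% lower at 500 mOsm, 4.55% and 25.8% at 600 mOsm, and 9.09% and 16.7% between the intensities. The share higher at 500 mOsm and the share lower between the intensities were thus above those of all genes for the 81 and below them for the 66. Without Yam1, described above, 3 were higher and 24 lower at 600 mOsm against iso-osmolar. The median standard error was 0.144 (log2) over the lincRNAs and 0.0992 over all genes at 500 mOsm. Both comparisons against iso-osmolar medium share its 3 libraries.

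**Figure D1:**
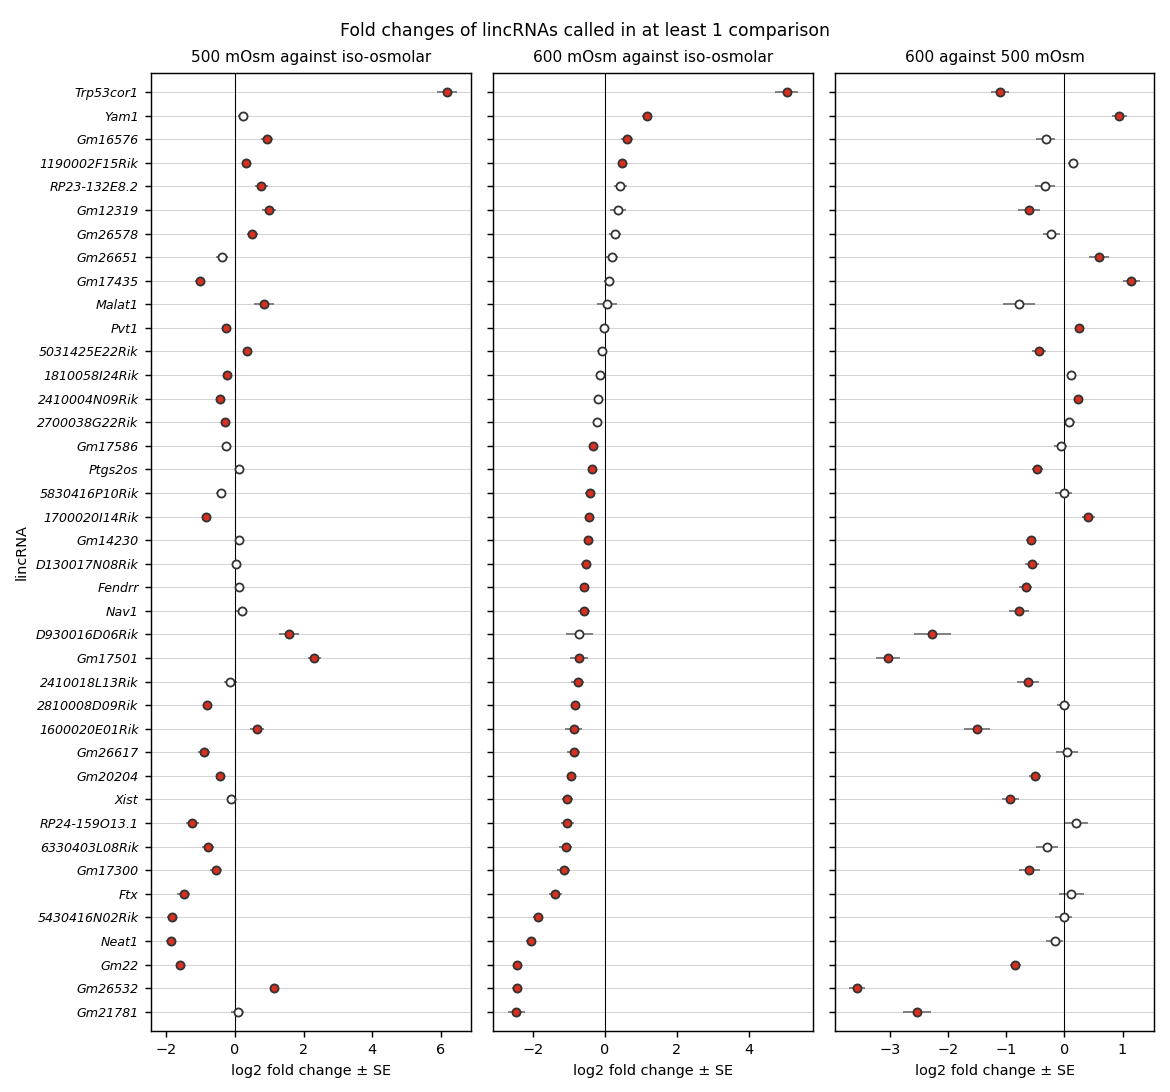
Log2 fold change with its standard error (x axis) of the 40 lincRNAs called in at least 1 of the 3 comparisons (y axis, ordered by 600 mOsm against iso-osmolar); filled points passed an adjusted p of 0.05 and open points did not. Trp53cor1 stands apart at 6.17 and 5.06 against iso-osmolar medium, and the largest falls between the intensities are those of Gm26532, Gm17501 and Gm21781.

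Large changes were fewer. An absolute log2 fold change above 1 was reached by 10 called lincRNAs at 500 mOsm (4 higher and 6 lower), by 12 at 600 mOsm (2 higher and 10 lower) and by 7 between the intensities (1 higher and 6 lower). As shares of the 81 these were 4.94% higher and 7.41% lower, 2.47% and 12.3%, and 1.23% and 7.41%. Over all genes tested the shares were 5.43% and 3.14% at 500 mOsm, 2.42% and 3.26% at 600 mOsm, and 1.57% and 4.98% between the intensities. The lincRNAs called in none of the comparisons numbered 41, among them Jpx, Crnde, Mir17hg, 5330426P16Rik (Dubr) and Gm20748 (Bvht, or Braveheart, known from heart development).

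The largest rise was that of Trp53cor1 (lincRNA-p21), a p53-induced lincRNA transcribed away from Cdkn1a on the opposite strand (chr17:29057474-29078961). It shares 1645 exonic bases with AC167363.1 and Gm27599 on the opposite strand, whose reads could not be told apart from its own. Its 3 iso-osmolar libraries held 4, 2 and 2 counts, the 500 mOsm libraries 240, 221 and 193, and the 600 mOsm libraries 96, 103 and 84. The groups did not overlap, and the iso-osmolar libraries lay at or near the floor of 3 counts. The summed counts gave a scaled ratio of 75.1 at 500 mOsm (95% exact interval 37.9 to 175, counting error only) and 34.8 at 600 mOsm (17.4 to 81.3). The edgeR log2 fold changes were 6.17 ± 0.28 (SE, adjusted p = 9.01e-09) and 5.06 ± 0.32 (adjusted p = 1.69e-07). Between the intensities Trp53cor1 was lower at 600 mOsm by a log2 fold change of -1.11 ± 0.16 (edgeR adjusted p = 0.000196). Its neighbour Cdkn1a, which codes for the cell cycle inhibitor p21, was higher at 500 mOsm by 0.44 (log2, adjusted p = 0.00848) and lower at 600 mOsm by -1.75 (adjusted p = 4.19e-07), both by edgeR against iso-osmolar medium.

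A further 6 lincRNAs were called higher at 500 mOsm than in either other group, and the 4 with the largest falls between the intensities come first. The share of all genes tested with this pattern was not computed, so whether it is more common among lincRNAs was not tested. Most of the summed counts of Gm17501, Gm26532 and D930016D06Rik, like those of Trp53cor1, came from the 500 mOsm libraries. Selection on the sum therefore favours such members. Gm17501 starts 0.327 kb from Cyr61 (Ccn1), an immediate early gene of the extracellular matrix, and runs away from it. Its level was 1.69, 1.02 and 1.31 CPM in iso-osmolar medium, 6.44, 5.99 and 7.51 CPM at 500 mOsm and 1.01, 0.761 and 0.657 CPM at 600 mOsm. All 500 mOsm libraries were thus above all others, and the iso-osmolar and 600 mOsm libraries did not overlap by a narrow margin. The fold change was 4.98 at 500 mOsm (log2 2.32 ± 0.19, edgeR adjusted p = 1.33e-06), and the level at 600 mOsm was 8.21-fold under that at 500 mOsm (log2 -3.04 ± 0.20, adjusted p = 3.40e-07). Against iso-osmolar medium the fall at 600 mOsm was small (log2 -0.72 ± 0.25, edgeR adjusted p = 0.0421). That call was lost with DESeq2, with only these groups in the fit and without iso-osmolar replicate 1 or 3, 500 mOsm replicate 1 or 600 mOsm replicate 2 or 3, at log2 values of -0.73 to -0.53. Cyr61 itself changed by 0.67, -0.59 and -1.26 (log2) in the 3 comparisons, each called.

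Gm26532, the row that follows the miR-23a, miR-27a and miR-24 sequences printed above (chr8:84208920-84209609), is a single exon of 690 bases. The controls held 4.51, 4.67 and 4.21 CPM of it, the 500 mOsm libraries 9.39, 9.61 and 10.4 CPM and the 600 mOsm libraries 0.837, 0.851 and 0.773 CPM. The 3 groups were well apart and each was narrow. It was 2.20-fold higher at 500 mOsm (log2 1.13 ± 0.11, edgeR adjusted p = 4.26e-06), 5.42-fold lower at 600 mOsm (log2 -2.44 ± 0.15, adjusted p = 1.20e-07) and 11.9-fold lower at 600 than at 500 mOsm (log2 -3.57 ± 0.14, adjusted p = 1.48e-09). The nearest coding gene tested, Zswim4 on the opposite strand, changed by 0.17, -0.21 and -0.38 (log2), of which the last 2 were called.

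D930016D06Rik lies downstream of the coding gene BC005561 on its strand. Its level was 0.729, 1.35 and 2.17 CPM in iso-osmolar medium, 5.53, 3.17 and 4.12 CPM at 500 mOsm and 0.837, 0.940 and 0.851 CPM at 600 mOsm. The iso-osmolar libraries were spread widely and the 600 mOsm libraries fell within their range. It was higher at 500 mOsm (log2 1.57 ± 0.29, edgeR adjusted p = 0.00131) and lower at 600 than at 500 mOsm (log2 -2.28 ± 0.32, adjusted p = 0.000168), while at 600 mOsm against iso-osmolar the value was -0.71 ± 0.37 (adjusted p = 0.159). Without iso-osmolar replicate 1 that last value was -1.0 and was called.

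1600020E01Rik overlaps Pcbp1, which codes for a poly(C)-binding protein, by 75 exonic bases on the opposite strand. It changed by 0.65 ± 0.21 at 500 mOsm (log2, edgeR adjusted p = 0.0333), -0.86 ± 0.24 at 600 mOsm (adjusted p = 0.0139) and -1.50 ± 0.22 between the intensities (adjusted p = 0.000273). Pcbp1 changed by 0.01, -0.26 and -0.27 (log2), less than its partner.

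Other lincRNAs were higher at 500 mOsm with smaller changes. Gm16576 starts 0.162 kb from Sun2, a nuclear envelope gene on the opposite strand, and was at 2.69, 2.01 and 2.05 CPM in iso-osmolar medium, 4.43, 3.54 and 4.96 CPM at 500 mOsm and 3.43, 3.31 and 3.56 CPM at 600 mOsm. Both treated groups lay above the iso-osmolar group, with log2 fold changes of 0.94 ± 0.17 (edgeR adjusted p = 0.000883) and 0.62 ± 0.17 (adjusted p = 0.0148). The second call was lost without iso-osmolar replicate 2 (0.54) or 3 (0.56). 1190002F15Rik (Lockd) was higher by 0.32 ± 0.10 and 0.47 ± 0.10 (log2, edgeR adjusted p = 0.0238 and 0.00234). The first of these calls was lost without iso-osmolar replicate 1 or 2 or 500 mOsm replicate 2, at 0.25 to 0.32. It was also lost under the replicate block. Gm12319, Gm26578 and 5031425E22Rik were higher at 500 mOsm by 0.99, 0.51 and 0.35 (log2), and none of them was called at 600 mOsm against iso-osmolar. Gm12319 and 5031425E22Rik were also called lower at 600 than at 500 mOsm.

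**Figure D2:**
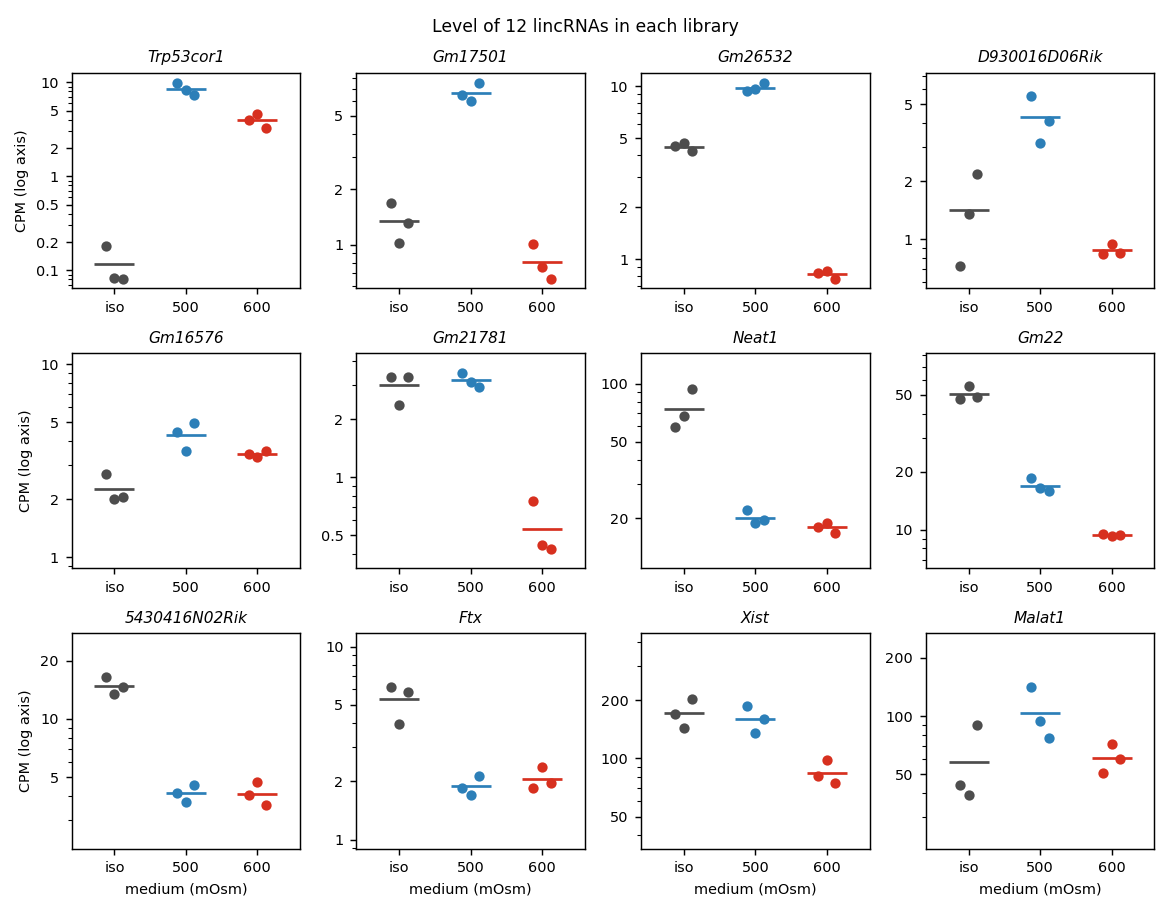
Level of 12 lincRNAs in each library in CPM (y axes, logarithmic and different in each panel) in iso-osmolar, 500 mOsm and 600 mOsm medium (x axis); points are libraries and bars are group means (n = 3). Gm26532 sits between 9.39 and 10.4 CPM at 500 mOsm and under 0.86 CPM at 600 mOsm, while Neat1, 5430416N02Rik and Ftx are lower in both treated groups.

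Neat1, the RNA scaffold of paraspeckles, was the most counted of the lincRNAs that fell at both intensities. The row spans the full 20771 bases of the long form (chr19:5824708-5845478), in which the short polyadenylated form is contained. Its level was 59.6, 68.3 and 93.5 CPM in iso-osmolar medium, 22, 18.9 and 19.8 CPM at 500 mOsm and 18.1, 19 and 16.9 CPM at 600 mOsm. Every treated library was below every iso-osmolar library, and iso-osmolar replicate 3 was the highest. Neat1 was 3.66-fold lower at 500 mOsm (log2 -1.87 ± 0.14, edgeR adjusted p = 5.66e-07) and 4.10-fold lower at 600 mOsm (log2 -2.04 ± 0.14, adjusted p = 3.56e-07). Between the intensities the value was -0.17 ± 0.14 (adjusted p = 0.431). After correction for GC content and gene length it turned to 0.30 and was called higher at 600 mOsm. Frmd8, 4.22 kb upstream on the same strand, was higher in both (log2 0.30 and 0.27, edgeR adjusted p = 0.0154 and 0.0247).

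Of 17 genes for paraspeckle proteins, none was higher, and 4, 8 and 4 were lower in the comparisons of 500 mOsm with iso-osmolar, 600 mOsm with iso-osmolar and 600 with 500 mOsm. These were 23.5%, 47.1% and 23.5% of the list, beside 14.8%, 20.0% and 17.2% of all genes tested. The 17 had 0.0% called higher in each, beside 13.2%, 15.1% and 11.9% of all genes. Their medians were -0.07, -0.13 and -0.04 (log2), beside medians of 0.01 over all genes. Nono and Sfpq, the core proteins that bind Neat1, changed by -0.05 and -0.08 at 500 mOsm (not called) and by -0.02 (not called) and -0.31 (called) at 600 mOsm. Pspc1, the third of the family, fell by 0.27 and 0.29 on the log2 scale, both called. The largest falls were those of Rbm4b (-0.74 and -0.89) and Rbm12 (-0.55 and -0.72). All were smaller than the falls of Neat1.

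Gm22, which GENCODE names Zfp469, is a single exon of 3082 bases within the gene Gm20388 on chromosome 8. Its level was 47.8, 55.8 and 48.5 CPM in iso-osmolar medium, 18.6, 16.4 and 15.8 CPM at 500 mOsm and 9.50, 9.27 and 9.40 CPM at 600 mOsm. The groups formed 3 separate steps. Gm22 was 3.0-fold lower at 500 mOsm (log2 -1.58 ± 0.08, edgeR adjusted p = 3.37e-08), 5.40-fold lower at 600 mOsm (log2 -2.43 ± 0.09, adjusted p = 2.26e-09) and lower at 600 than at 500 mOsm (log2 -0.85 ± 0.09, adjusted p = 2.08e-05). Zfpm1, 9.49 kb away on the same strand, fell by 0.56 and 0.89 on the log2 scale against iso-osmolar medium (edgeR adjusted p = 0.00900 and 0.000447).

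5430416N02Rik, near Sec31a on chromosome 5, was at 16.4, 13.5 and 14.6 CPM in iso-osmolar medium, 4.14, 3.69 and 4.58 CPM at 500 mOsm and 4.02, 4.70 and 3.6 CPM at 600 mOsm. The treated groups overlapped each other and lay well below the controls, at 3.58-fold and 3.62-fold (log2 -1.84 ± 0.13 and -1.86 ± 0.13, edgeR adjusted p = 3.47e-07 and 3.95e-07). Sec31a, a coat protein gene of transport vesicles, changed by -0.03 (not called) and -0.20 (called). RP24-159O13.1, downstream of Syne3, fell with its neighbour, by 1.24 and 1.04 on the log2 scale beside 1.07 and 1.15 for Syne3, all called. 6330403L08Rik overlaps Pdgfa, a growth factor gene, on the opposite strand, and the values of that pair were -0.78 and -1.08 for the lincRNA and -1.03 and -1.30 for Pdgfa, all called.

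2810008D09Rik, which GENCODE names Snhg20 and which was kept because the table does not use that symbol, was lower at both intensities (log2 -0.82 ± 0.11 and -0.83 ± 0.11, edgeR adjusted p = 8.32e-05 and 8.49e-05). 1700020I14Rik (Cyrano, or Oip5os1), known for steering miR-7 to decay, was lower at 500 mOsm by -0.85 ± 0.11 (edgeR adjusted p = 6.13e-05) and at 600 mOsm by -0.43 ± 0.11 (adjusted p = 0.00696). The second of these was -0.18 and not called after correction for gene length. Gm20204, Gm17300 and Gm26617 were also lower in both (log2 -0.43 and -0.94, -0.54 and -1.15, and -0.91 and -0.87).

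The X inactivation centre gave 3 of the lincRNAs. Xist was at 171, 144 and 204 CPM in iso-osmolar medium, 188, 136 and 159 CPM at 500 mOsm and 81, 97.8 and 74.3 CPM at 600 mOsm. The first 2 groups overlapped and the 600 mOsm libraries were all lower. The log2 fold change was -0.10 ± 0.14 at 500 mOsm (edgeR adjusted p = 0.633), -1.04 ± 0.14 at 600 mOsm (adjusted p = 0.000114) and -0.93 ± 0.14 between the intensities (adjusted p = 0.000289). Xist shares 2061 exonic bases with genes on the opposite strand, Tsix among them.

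Ftx, a non-coding activator of Xist, had another pattern. Its level was 6.19, 3.97 and 5.85 CPM in iso-osmolar medium, 1.84, 1.70 and 2.14 CPM at 500 mOsm and 1.84, 2.37 and 1.97 CPM at 600 mOsm. Both treated groups lay below the controls and overlapped each other, with log2 fold changes of -1.49 ± 0.19 (edgeR adjusted p = 6.46e-05), -1.37 ± 0.19 (adjusted p = 0.000142) and 0.12 ± 0.21 between the intensities (adjusted p = 0.719). Jpx, a further activator of Xist, changed by -0.01 ± 0.18, -0.18 ± 0.19 and -0.17 ± 0.19 (edgeR adjusted p = 0.971, 0.489 and 0.543). Per length, Xist was at 9.78, 9.08 and 4.71 FPKM in the 3 groups, Ftx at 1.26, 0.444 and 0.479 FPKM and Jpx at 0.575, 0.570 and 0.502 FPKM.

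Gm21781, 3.48 kb from the start of the zinc finger gene Zbtb2 on the opposite strand, was low at 600 mOsm alone. Its level was 3.32, 2.38 and 3.31 CPM in iso-osmolar medium, 3.48, 3.13 and 2.94 CPM at 500 mOsm and 0.753, 0.448 and 0.425 CPM at 600 mOsm. The first 2 groups overlapped, and the 600 mOsm group was 5.50-fold below the controls (log2 -2.46 ± 0.24, edgeR adjusted p = 8.85e-06) and 5.83-fold below the 500 mOsm group (log2 -2.54 ± 0.24, adjusted p = 6.61e-06). Zbtb2 changed by 0.40, -0.54 and -0.94 (log2) in the 3 comparisons, each called.

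Smaller falls at 600 mOsm against both other groups were found for Fendrr, Ptgs2os, Gm14230, D130017N08Rik, 2410018L13Rik and the row that the table names Nav1 and GENCODE names Gm38399. Against iso-osmolar medium they were -0.56, -0.35, -0.47, -0.53, -0.75 and -0.58 (log2), and none of the 6 was called at 500 mOsm. Fendrr, which is transcribed away from the lung and gut factor gene Foxf1, was at 13.2, 14.4 and 18.3 CPM in iso-osmolar medium and at 10.3, 9.76 and 11.0 CPM at 600 mOsm. Foxf1 itself was lower at both intensities (log2 -0.75 and -0.63, edgeR adjusted p = 5.31e-06 and 3.04e-05). Ptgs2os starts 0.068 kb from Ptgs2, the gene of the cyclooxygenase COX-2, which changed far more than the lincRNA (log2 0.55 at 500 mOsm, -1.62 at 600 mOsm and -2.17 between them, all called).

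Gm17435, antisense to the Mediator gene Med26, was low at 500 mOsm and not at 600 mOsm. It was at 4.33, 4.14 and 3.6 CPM in iso-osmolar medium, 1.89, 1.92 and 2.10 CPM at 500 mOsm and 4.77, 4.57 and 3.83 CPM at 600 mOsm. The 500 mOsm libraries were below all others (log2 -1.03 ± 0.15, edgeR adjusted p = 0.000187), and the level was higher at 600 than at 500 mOsm (log2 1.15 ± 0.15, adjusted p = 8.23e-05). Pvt1, the neighbour of Myc, moved the same way by less, -0.26 ± 0.07 at 500 mOsm and 0.24 ± 0.07 between the intensities (edgeR adjusted p = 0.0124 and 0.0181). The second was lost without 500 mOsm replicate 1 or 2 or 600 mOsm replicate 2, at 0.21 to 0.22. Gm26651 was higher at 600 than at 500 mOsm (log2 0.59 ± 0.17, edgeR adjusted p = 0.0231). That call was lost with DESeq2 and without 500 mOsm replicate 2 or 3 or 600 mOsm replicate 1 or 3, at 0.49 to 0.59. It was also lost under the replicate block. 2410004N09Rik was higher by 0.24 ± 0.08 between the intensities (edgeR adjusted p = 0.0485). That call was lost under 20 alternatives. Among them were leaving out any of the 9 libraries, both other scalings, DESeq2 and the replicate block.

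Malat1, a nuclear RNA of speckles, differed widely between libraries of the same group. Its level was 43.9, 39.1 and 90.3 CPM in iso-osmolar medium, 141, 94.6 and 77.3 CPM at 500 mOsm and 50.4, 71.2 and 59.8 CPM at 600 mOsm. The groups overlapped, since iso-osmolar replicate 3 was above 500 mOsm replicate 3. The change at 500 mOsm was called (log2 0.85 ± 0.28, edgeR adjusted p = 0.0390). The call was lost with DESeq2, with only these groups in the fit, under the replicate block and with limma on log2(FPKM + 1). It was also lost without iso-osmolar replicate 1 (0.68) or 2 (0.63) or 500 mOsm replicate 1 (0.57). Iso-osmolar replicate 3 was also the highest of its group for Neat1, Xist and Yam1. In the treated groups, 500 mOsm replicate 1 and 600 mOsm replicate 2 were the highest for Malat1, Neat1 and Xist, but not for Yam1. Over all genes with enough counts, the deviations of these libraries from their group means had an r of 0.359 to 0.522. The cause was not tested.

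The 81 rows together took 0.284% ± 0.0400 (SD, n = 3) of the counts on genes in the controls, 0.303% ± 0.0320 at 500 mOsm and 0.464% ± 0.0146 at 600 mOsm. Most of this was Yam1, with 33267, 37441 and 49842 counts in the controls, 48682, 61401 and 42971 counts at 500 mOsm and 94728, 79358 and 101537 counts at 600 mOsm. The 600 mOsm libraries were all above the others (log2 1.17 ± 0.13 against iso-osmolar and 0.94 ± 0.12 against 500 mOsm, edgeR adjusted p = 1.68e-05 and 0.000105). Gm26917, the row beside it in the same ribosomal RNA locus and of another type, rose from 0.216% ± 0.0404 to 0.421% ± 0.114 and 0.888% ± 0.342 of counts. Without Yam1 the share of the other 80 was 0.113% ± 0.00938, 0.105% ± 0.00559 and 0.0861% ± 0.00347, the opposite order.

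**Figure D3:**
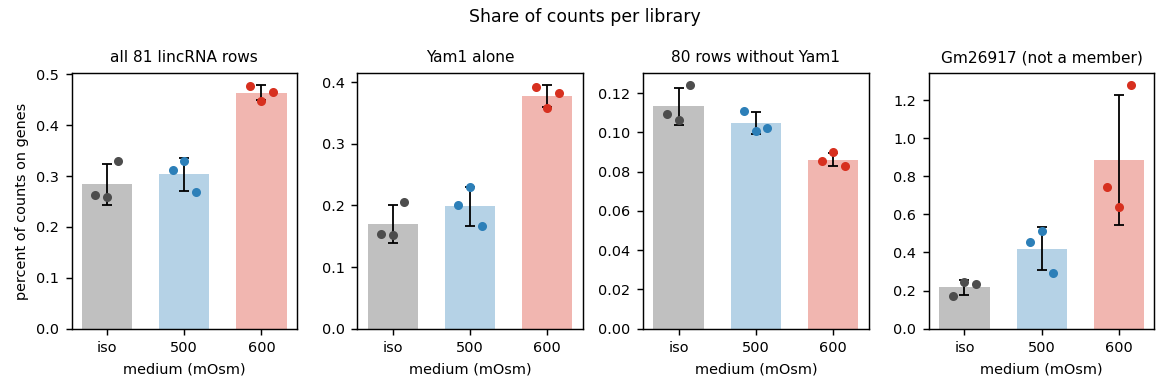
Percent of the counts on genes in each library (y axes from 0, different in each panel) taken by the 81 lincRNA rows, by Yam1 alone, by the 80 others and by Gm26917, in the 3 media (x axis); points are libraries, bars are means and error bars are SD (n = 3). Yam1 and Gm26917 rise to 0.378% and 0.888% at 600 mOsm, while the 80 other rows fall to 0.0861%.

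By place, 25 of the 81 were divergent and 23 were isolated, with no coding gene within 10 kb. Divergent lincRNAs started within 5 kb of the start of a coding gene on the opposite strand and overlapped no coding gene. A further 11 overlapped a coding gene on the opposite strand, 11 lay within 10 kb downstream of one on the same strand, 3 overlapped one on the same strand and 8 were near one in another way. Of the 25 divergent lincRNAs, edgeR called 4 rises and 0 falls at 500 mOsm, 1 rise and 5 falls at 600 mOsm, and 0 rises and 6 falls between the intensities. The rises at 500 mOsm and the falls at 600 mOsm were 16% and 20.0% of the group, near the 13.2% and 20.0% of all genes. The falls between the intensities were 24% beside 17.2%. The falls at 500 mOsm were 0.0% beside 14.8%. The rises were 4.0% beside 15.1% at 600 mOsm and 0.0% beside 11.9% between the intensities. The median log2 fold changes of the 25 stayed near 0, at 0.06, -0.09 and -0.09. The 4 higher at 500 mOsm were Gm17501, Gm16576, Gm12319 and 5031425E22Rik. Of the 11 antisense overlaps, 1 rose and 3 fell at 500 mOsm, and 0 rose and 5 fell at 600 mOsm, with a median of -0.31 at 600 mOsm. The falls were 27.3% and 45.5% of a group of 11, beside 14.8% and 20.0% of all genes. The rises were 9.09% and 0.0%, beside 13.2% and 15.1%. Overlap took precedence over the other places. Fendrr was thus placed here through Gm20388, although it starts 1.28 kb from Foxf1 on the opposite strand, and Xist through Gm26992. Both were among the falls at 600 mOsm. Gm20388 also placed Gm22 among the overlaps on the same strand. Of the 23 isolated lincRNAs, 3 rose and 3 fell at 500 mOsm, and 2 rose and 5 fell at 600 mOsm, or 13% and 13%, and 8.7% and 21.7%, beside 13.2% and 14.8%, and 15.1% and 20.0%, of all genes.

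**Figure D4:**
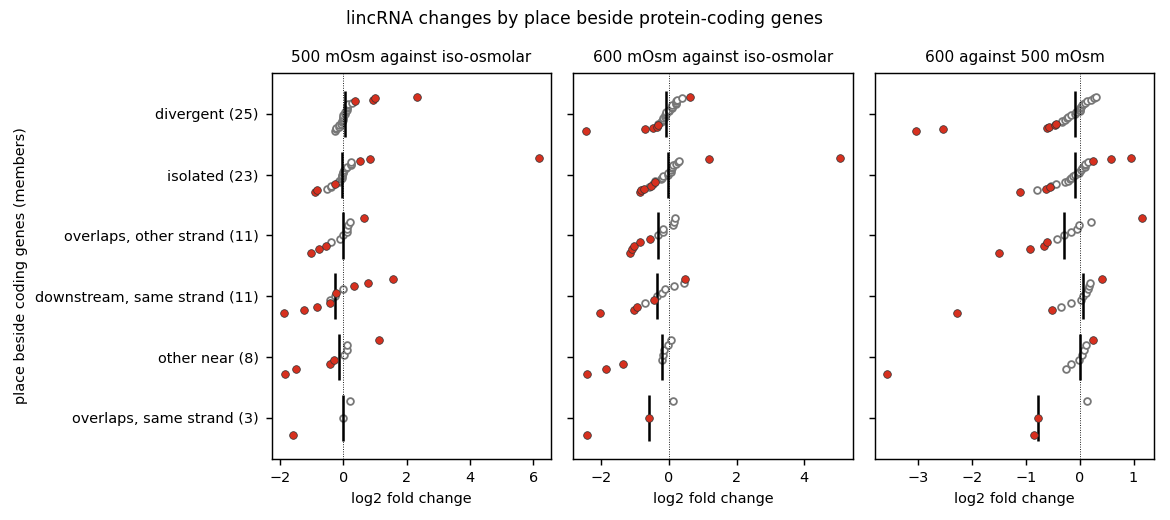
Log2 fold change of each of the 81 lincRNAs (x axis) in the 3 comparisons, grouped by place beside protein-coding genes (y axis, members in brackets); filled points were called, open points were not, and vertical bars are medians. The divergent group holds 4 called rises at 500 mOsm and 6 called falls between the intensities.

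A tested coding gene lay within 10 kb of 54 lincRNAs, and 53 pairs were compared, leaving out the Nav1 row, which lies inside the coding gene of that symbol. At 500 mOsm, 21 of these lincRNAs were called; the neighbour was called the same way for 6, the opposite way for 4 and not called for 11. At 600 mOsm the numbers were 12, 2 and 4 of 18, and between the intensities 8, 1 and 7 of 16. Of the 53 neighbours, 22.6% were called higher and 18.9% lower at 500 mOsm, 17% and 39.6% at 600 mOsm, and 1.89% and 34.0% between the intensities, beside the shares of all genes given above. Across the 53 pairs, the log2 fold changes had a Pearson r of 0.17, 0.24 and 0.33 and a Spearman rho of 0.14, 0.29 and 0.29. These are descriptions across pairs of genes, which share the libraries and, where exons overlap, reads. Among pairs that went opposite ways at 500 mOsm were Neat1 and Frmd8, 1700020I14Rik and Oip5 (-0.85 and 0.49), 2410004N09Rik and Epb4.1l4a (-0.43 and 0.50) and 1810058I24Rik and Slc13a4 (-0.24 and 3.58).

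**Figure D5:**
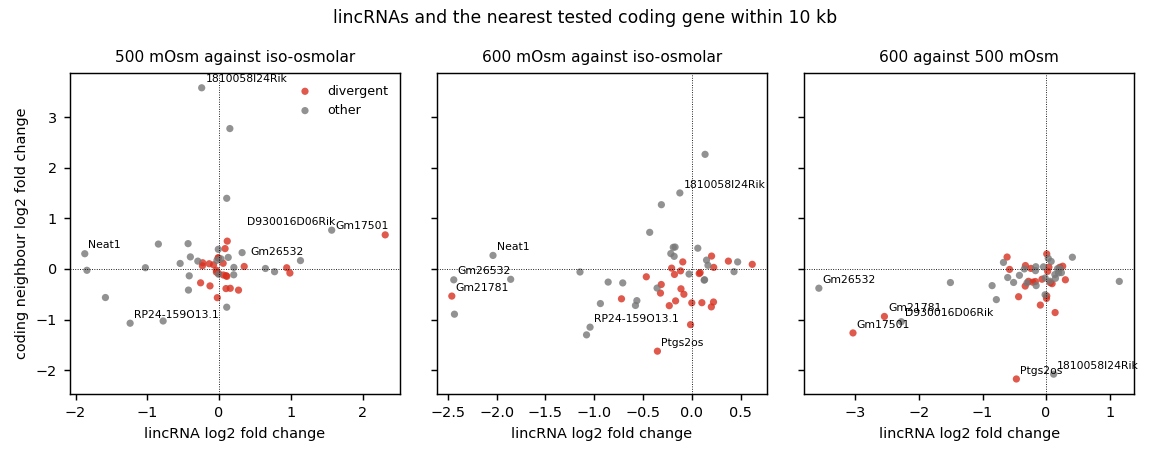
Log2 fold change of the nearest tested coding gene within 10 kb (y axis) against that of the lincRNA (x axis) in the 3 comparisons. The 54 pairs shown include the Nav1 row. Red points are divergent lincRNAs and grey points the others. Gm17501, Gm21781 and D930016D06Rik lie low on both axes between the intensities, and Neat1 lies low on the x axis only.

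The genes that act on non-coding transcripts were read from the same fit in 2 lists. Of 19 genes of the nuclear exosome, which degrades many of them, and its adaptors, 0 rose and 3 fell at 500 mOsm, and 1 rose and 3 fell at 600 mOsm, with medians of -0.08 and -0.01 (log2). The falls were 15.8% of the list in both, near the 14.8% and 20.0% of all genes. The rises were 0.0% and 5.26%, beside 13.2% and 15.1%. Papd5, a poly(A) polymerase that feeds the exosome, was the member with the largest change (log2 0.01 at 500 mOsm and -0.73 at 600 mOsm, edgeR adjusted p = 0.920 and 1.27e-05). Exosc7 was the member called higher at 600 mOsm (0.17). Of 20 genes of cleavage and polyadenylation, 1 rose and 4 fell at 500 mOsm, and 1 rose and 5 fell at 600 mOsm, with medians of -0.01 in both. The falls were 20.0% and 25% of the list, beside the same 14.8% and 20.0%. The rises were 5.0% in both, beside the same 13.2% and 15.1%. Scaf4 and Scaf8, which restrain early polyadenylation, fell at 600 mOsm by 1.24 and 0.66 on the log2 scale (edgeR adjusted p = 4.62e-08 and 1.44e-05), and Pcf11, which promotes termination, was the member higher at 500 mOsm (log2 0.65, adjusted p = 0.0413).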

How the data were processed

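RNA of 9 MEF libraries, 3 per group, was enriched with poly-T, fragmented and sequenced as paired reads. The submitters' processing notes name CASAVA 1.8 and STAR and the build mm10, and the paper states alignment to mm10. The counting tool, annotation release and use of strand are not given in the sources used here. The authors deposited 1 table with the counts per gene and library, without normalization, and FPKM from them with the gene length. It also holds group means, log2 fold changes and p-values of the authors' own DESeq2 comparisons, which were left unread here.

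Counts were scaled by TMM and tested in edgeR 4.0.16 (R 4.3.3) with the quasi-likelihood test, all 9 libraries in 1 fit with the group as factor, on the 13082 genes that passed filterByExpr, with Benjamini-Hochberg adjustment over them and 0.05 as the threshold. The common biological coefficient of variation came to 0.0756. The fit was tested on simulated data. The lincRNAs, the gene lists and the motifs were chosen with earlier results of these data known. Members named are those with a textbook role, those with the 5 smallest p or 3 largest changes per direction and comparison, the 10 highest by FPKM and the 3 on either side of the limit of 450; Gm12319, Gm26578, 5031425E22Rik, RP24-159O13.1, 6330403L08Rik, 2810008D09Rik, Gm20204, Gm17300, D130017N08Rik, 2410018L13Rik, 1600020E01Rik, Ptgs2os and the Nav1 row were chosen after their values were seen. Positions, exons and types came from GENCODE M21 and promoters and miRNAs from RefSeq.

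Alternatives were RLE factors or library size alone, other filters, DESeq2 1.42.0, only the 2 groups compared, the replicate block, stricter thresholds, limma 3.58.1 on log2 FPKM, a correction for length, other limits on members, and each library left out. A correction for GC content and length, and counts without Yam1, were added after seeing the data.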

Additional observations from a re-analysis of the deposited data

How the results depend on the processing

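Counts of called lincRNAs moved by at most 1.5 times under RLE factors, library size alone, other filters on genes, DESeq2, the 2 groups alone, limma on FPKM and both corrections. Libraries of different groups with the same replicate number deviated together no more on average than others (mean r of -0.206 over 9 pairs beside 0.105 over 18). Single pairs ran from -0.564 (500 mOsm 2 and 600 mOsm 2) to 0.522 (iso-osmolar 3 and 500 mOsm 1). Read after the fact, iso-osmolar 2, 500 mOsm 2 and 600 mOsm 3 had an r of 0.446 to 0.481 among themselves. For iso-osmolar 3, 500 mOsm 1 and 600 mOsm 2 it was 0.359 to 0.522. For iso-osmolar 1, 500 mOsm 3 and 600 mOsm 1 it was 0.143 to 0.458. All other pairs ran from -0.564 to 0.219. No fit used this matching, and whether it marks a shared batch was not tested. The replicate block matches libraries by number alone. Under the replicate block the counts were 8 higher and 14 lower at 500 mOsm, 4 and 23 at 600 mOsm and 4 and 16 between the intensities. Leaving out single libraries, the counts at 500 mOsm ran from 7 to 12 higher (7 without iso-osmolar replicate 1) and 13 to 17 lower, at 600 mOsm from 3 to 5 higher and 21 to 25 lower, and between the intensities from 3 to 5 higher (3 without 500 mOsm replicate 2) and 14 to 21 lower.

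Where calls also had to reach a log2 change of 1 in size, the counts were 4 higher and 6 lower at 500 mOsm, 2 and 10 at 600 mOsm and 1 and 6 between the intensities. With an adjusted p under 0.01, 7 were higher at 500 mOsm and 2 between the intensities. At 500 mOsm, 21 were higher with a summed count of at least 200, 6 with at least 900 and 5 with at least 50 counts on average in each group, a setting that left 11 lower between the intensities. Among lincRNAs that overlap no other listed gene, 9 were lower at 500 mOsm, 14 at 600 mOsm and 3 higher between the intensities. These limits test fewer or more members by construction. Without the 3 most counted rows the lincRNAs took 0.0883%, 0.0811% and 0.0698% of counts in the iso-osmolar, 500 mOsm and 600 mOsm groups. Counted within 5 or 50 kb, 7 or 22 lincRNAs lay downstream on the same strand.

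For the named lincRNAs, 2125 values under an alternative kept their side of the threshold, 88 lost a call and 27 gained one. Values that changed sign without a call on either side are among the 2125. Only 1 value turned sign with a call. Neat1 between the intensities, not called in the main fit, was called higher at 0.30 after the correction for GC content and length. The cause was not tested. No scaling moved the median of all genes by more than 0.02 (log2). At 21716042 or more counts a library, the median standard error of a lincRNA was 0.144 to 0.145 (log2).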

Other observations

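Below the limit of 450 summed counts, 185 further lincRNA rows were tested. At 500 mOsm 21 were higher and 22 lower, at 600 mOsm 7 and 37, and between the intensities 2 higher and 25 lower. As shares these were 11.4% and 11.9%, 3.78% and 20.0%, and 1.08% and 13.5%, beside 13.2% and 14.8%, 15.1% and 20.0%, and 11.9% and 17.2% of all genes tested. These rows had a median standard error of 0.340 to 0.362 (log2), above that of the 81. The rows named here were chosen after their values were seen. Some held next to no counts in iso-osmolar medium and appeared at 500 mOsm, such as RP23-28J6.1 (mean 0.0425, 2.52 and 0.646 CPM in the iso-osmolar, 500 mOsm and 600 mOsm groups) and B230312C02Rik (0.0137, 1.81 and 0.0418 CPM). Gm9917 was at 0.607, 3.79 and 0.184 CPM. Gm26656 and Gm26640 were higher at 600 mOsm, at 0.352, 0.0518 and 1.90 CPM and at 0.187, 0.157 and 1.23 CPM.

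Of the 6 rows left out for their Snhg symbols, Snhg4, Snhg6 and Snhg12 were lower at 500 mOsm by edgeR, and these and Snhg1 were lower at 600 mOsm. Snhg12 changed by -0.94 and -1.36 and Snhg1 by -0.14 (not called) and -0.75 (log2). Snhg7 was higher at 500 mOsm (0.28) and Snhg18 at 600 mOsm (0.35).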
